A study of Spodoptera frugiperda with 6 samples.

Results

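The miRNAs described here are bmo-let-7-5p, sfr-miR-14-5p and sfr-miR-281-5p, which are tied to ecdysone signalling and the timing of moults in insects. They were taken by their miRBase names from the table of mature miRNAs of Spodoptera frugiperda (the fall armyworm), where they make up 3 of 172 rows and 3 of 128 distinct mature sequences, each listed for a single precursor. Small RNA was sequenced from whole larvae of a strain labelled resistant and a strain labelled susceptible, with 3 libraries per strain. Each library was made from 100 larvae aged 3 to 5 days, so a library is a pool of animals and no value belongs to a single larva. Per the study's methods, the strain resistant to diamides, insecticides that act on the ryanodine receptor of muscle, came from a university laboratory, the susceptible strain came from a commercial colony, and both ate artificial diet. No genetic modification and no insecticide exposure is named for these larvae, and resistance and the origin of the strains cannot be told apart.

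Each moult of an insect is started by a pulse of the steroid hormone ecdysone, which acts through the ecdysone receptor and a cascade of early and late genes, while juvenile hormone decides whether the moult leads to another larval stage. miRNAs repress messenger RNAs that pair with their seed, bases 2 to 8 from the 5′ end. In Drosophila, let-7 rises with ecdysone at the onset of metamorphosis, and in the silkworm it acts on genes of the ecdysone cascade. In Drosophila, miR-14 represses the messenger RNA of the ecdysone receptor and is itself lowered by ecdysone signalling, and it also acts in fat metabolism and cell death. In the silkworm, miR-281 represses an isoform of the ecdysone receptor in the Malpighian tubules, the excretory organs of insects.

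The mature sequences below are those of the study's supplementary tables, 5′ to 3′ with the seed in capitals, and are shown because the seeds decide which of the miRNAs can pair with the same targets.
bmo-let-7-5p: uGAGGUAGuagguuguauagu
sfr-miR-14-5p: uCAGUCUUuuucucucuccuau
sfr-miR-281-5p: aAGAGAGCuauccgucgacagu
sfr-miR-2766-5p: uCAGUCUUgucgaauggugggu
The 3 moulting miRNAs carried 3 different seeds. The seed of sfr-miR-14-5p (CAGUCUU) was shared with sfr-miR-2766-5p, whereas the seeds of bmo-let-7-5p (GAGGUAG) and sfr-miR-281-5p (AGAGAGC) occurred in no other distinct sequence of the table. Over the whole table, 9 of 110 seeds were shared by more than 1 distinct sequence. sfr-miR-14-5p and sfr-miR-2766-5p were identical over their first 8 bases and had the same base at 11 of 22 positions.

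sfr-miR-14-5p and sfr-miR-281-5p had 22 nt, the most common length (70 of 128 distinct sequences, 54.7%), and bmo-let-7-5p had 21 nt (18 of 128, 14.1%). sfr-miR-14-5p held U at 12 of its 22 positions and had a GC content of 36.4%, compared with 38.1% for bmo-let-7-5p, 50% for sfr-miR-281-5p and a median of 45.5% over the distinct sequences. bmo-let-7-5p and sfr-miR-14-5p began with U, as did 56 of 128 sequences (43.8%), whereas sfr-miR-281-5p began with A.

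The precursors are printed to show the arm of the hairpin that holds each mature miRNA, which is in capitals.
bmo-let-7-5p: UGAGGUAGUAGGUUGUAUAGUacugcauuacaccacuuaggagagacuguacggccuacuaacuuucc
sfr-miR-14-5p: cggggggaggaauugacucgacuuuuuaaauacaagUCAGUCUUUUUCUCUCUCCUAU
sfr-miR-281-5p: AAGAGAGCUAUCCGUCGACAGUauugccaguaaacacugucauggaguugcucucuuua
The mature sequences of bmo-let-7-5p and sfr-miR-281-5p opened their precursors at base 1. sfr-miR-14-5p, despite the 5p in its name, lay at bases 37 to 58 of a precursor of 58 bases, on the 3′ arm. This was not particular to it: of 85 rows whose name ends in 5p, 45 had the mature sequence nearer to the 3′ end of the precursor. The precursor of bmo-let-7-5p had 68 bases against a median of 59, and 10 of 172 precursors were at least as long. The predicted folding energies of the 3 precursors were close to each other, at -25.6 kcal/mol for bmo-let-7-5p, -26.3 for sfr-miR-14-5p and -25.4 for sfr-miR-281-5p, and the median precursor had -23.5. In the assembly ZJU_Sfru_1.0, the bmo-let-7-5p precursor spans NC_049738.1 from 726303 to 726370 (minus strand), that of sfr-miR-14-5p spans NC_049710.1 from 17088320 to 17088377 (plus strand) and that of sfr-miR-281-5p spans NC_049737.1 from 4998981 to 4999039 (minus strand). No genome annotation of this assembly was used here, so the genes around them are not given.

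The deposited read counts summed to 540739 to 1288083 per library, with repeated copies of a sequence included. The unit of level is CPM, a miRNA's counts in every 1000000 that its library holds (copies included), after TMM scaling between libraries with factors of 0.935 to 1.065. The strain comparison used edgeR's quasi-likelihood test and the Benjamini-Hochberg adjustment over the 152 rows that passed its filter on low counts, and all 3 moulting miRNAs passed this filter. A positive log2 fold change means a higher level in the resistant strain. Directions rest on the strain labels, which no miRNA level checks, and the study's labels and text leave it in doubt which libraries are the resistant ones. Resistant and susceptible libraries here therefore mean those so labelled: if the labels were exchanged, every direction below would turn, while sizes, separations and ratios within a library would stand. Intervals of single CPM values are exact (Clopper-Pearson, 95%) and cover counting error only, since reads carry no molecular identifiers. bmo-miR-133, a muscle miRNA, and bmo-miR-124, a neuronal miRNA, were present in every library (1759 to 2901 and 34.7 to 62.3 CPM). In RNA of whole larvae, fewer cells of a type and less RNA per cell cannot be told apart.

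sfr-miR-281-5p was the most abundant of the 3, followed by sfr-miR-14-5p and bmo-let-7-5p, and this order held in all 6 libraries. Their mean levels over the 6 libraries were 73547 ± 7885, 13704 ± 3123 and 1372 ± 274 CPM (SD, n = 6 libraries of both strains), which ranked 4, 10 and 31 among the 128 distinct sequences. With each sequence taken once, the 3 together held 11.9% ± 1.23 of all counts in the resistant strain and 12.4% ± 0.67 in the susceptible strain (SD, n = 3 each).

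**Figure D1:**
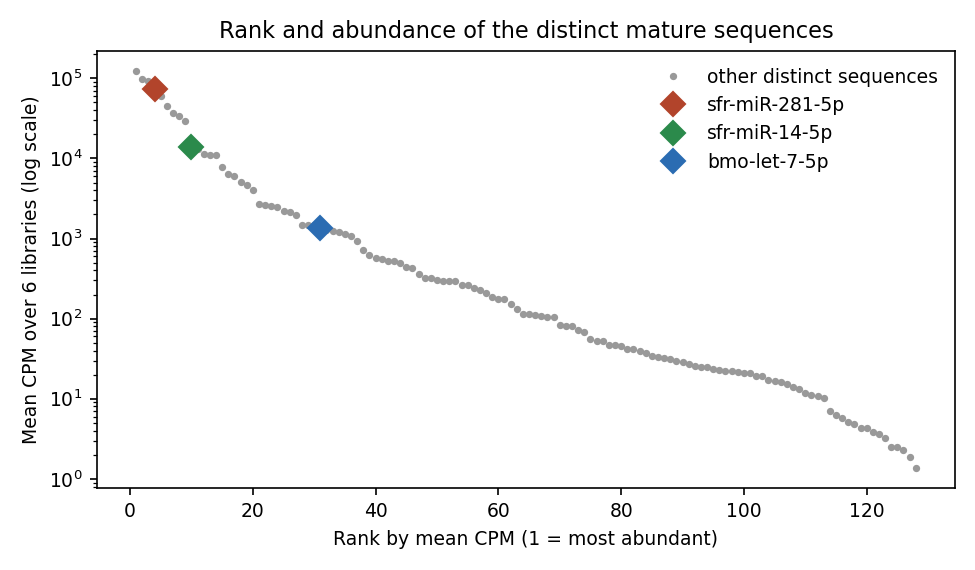
Mean CPM over 6 libraries (log scale) against rank for the 128 distinct mature sequences; grey points are other sequences and diamonds the moulting miRNAs. sfr-miR-281-5p is at rank 4 and sfr-miR-14-5p at rank 10, in the steep part of the curve, and bmo-let-7-5p at rank 31.

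For sfr-miR-14-5p, the resistant libraries had 15836, 18138 and 15172 CPM in replicates 1, 2 and 3 (20046, 10195 and 8735 counts). The susceptible libraries had 10955, 11721 and 10400 CPM (10107, 13922 and 9507 counts). All resistant libraries lay above all susceptible libraries, and the lowest resistant value was 1.29 times the highest susceptible value. Such separation was common: the groups did not overlap for 56 of 112 sequences tested (50%), 31 of them higher in the resistant libraries (27.7%). The counting intervals were narrow, from 15620 to 16055 CPM in resistant replicate 1 and from 10193 to 10610 CPM in susceptible replicate 3. The means were 16382 ± 1556 and 11025 ± 663 CPM (SD, n = 3 each), and sfr-miR-14-5p was 1.49-fold higher in the libraries labelled resistant (log2 fold change 0.57, 95% interval 0.35 to 0.80, standard error 0.10, edgeR adjusted p = 0.00265).

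sfr-miR-14-5p was the only one of the 3 that passed the test. Over the table, 40 of 112 distinct sequences tested passed at an adjusted p under 0.05 (35.7%), 24 of them higher in the resistant libraries (21.4%) and 16 lower (14.3%), so a call as such does not set sfr-miR-14-5p apart. Leaving out 1 library lowered the count of sequences called to between 19 (without susceptible replicate 2) and 29. Its fold change was the 21st highest of the 112. Upper-quartile factors gave 11 higher and 22 lower, and library sizes set to mapped reads gave 3 higher and 29 lower. These 2 scalings moved the median log2 fold change of the table from 0.03 to -0.14 and -0.66. sfr-miR-14-5p then had log2 fold changes of 0.39 (adjusted p = 0.00834) and -0.15 (adjusted p = 0.776), so that its direction turned when the libraries were scaled to mapped reads. Relative to the median of the table it stood 0.51 to 0.54 higher (log2) under each of 8 scalings or tests. A change of scaling shifts all sequences and their median nearly alike. This distance could therefore hardly change with the scaling, and its constancy is no check on the direction. Leaving out each library in turn kept the call, at a log2 fold change of 0.49 to 0.65.

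The rank of sfr-miR-14-5p, which needs no scaling between libraries, was 10 in all 3 resistant libraries and 12 in all 3 susceptible libraries. How many other sequences had ranks separated by strain was not counted, so this split cannot be called particular to sfr-miR-14-5p. The change of 2 places came from sfr-miR-2c-5p and bmo-miR-278-5p, which lay below sfr-miR-14-5p in each resistant library and above it in each susceptible library. sfr-miR-2c-5p, the next sequence below sfr-miR-14-5p by mean level, had 13527 ± 674 CPM in the resistant and 12936 ± 555 in the susceptible libraries (SD, n = 3 each; log2 fold change 0.06, edgeR adjusted p = 0.603). The ratio of sfr-miR-14-5p to sfr-miR-2c-5p was 1.11 to 1.28 in the resistant libraries and 0.785 to 0.891 in the susceptible libraries. bmo-miR-276-5p, the next above, was higher than sfr-miR-14-5p in all 6 libraries (29620 ± 3782 CPM, SD, n = 6).

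For sfr-miR-281-5p, the resistant libraries had 69466, 61150 and 72488 CPM in replicates 1, 2 and 3 (87931, 34371 and 41733 counts). The susceptible libraries had 81445, 74458 and 82277 CPM (75139, 88443 and 75215 counts). The resistant libraries were the 3 lowest, by a narrow margin: the lowest susceptible value was 1.03 times the highest resistant value. Groups that did not overlap were common, at 56 of 112 sequences (50%), 25 of them lower in the resistant libraries (22.3%). The means were 67701 ± 5871 and 79393 ± 4295 CPM (SD, n = 3 each), and the difference did not pass the test (log2 fold change -0.23, 95% interval -0.43 to -0.03, unadjusted p = 0.0308, edgeR adjusted p = 0.0749). It stood 0.24 to 0.29 (log2) below the median of the table under the 8 scalings or tests, a distance that scaling hardly affects. Scaling to mapped reads gave a log2 fold change of -0.90 (adjusted p = 0.0781), and upper-quartile factors gave -0.40 (adjusted p = 0.0511).

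sfr-miR-281-5p ranked 3 to 5 in the libraries. It lay above bmo-miR-8-5p, the next below by mean level, in 5 of 6 libraries, with resistant replicate 2 as the exception. It lay below the bantam sequence, listed as bmo-bantam-5p and Spodoptera_mature_01, in 5 of 6 libraries, with susceptible replicate 3 as the exception. The differences from these neighbours, 0.27 ± 0.28 and -0.34 ± 0.24 on the log2 scale (SD, n = 6 libraries), were of the size of their spread, so the order of these 3 sequences was not fixed.

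For bmo-let-7-5p, the resistant libraries had 1249, 1688 and 1744 CPM in replicates 1, 2 and 3 (1581, 949 and 1004 counts). The susceptible libraries had 1079, 1255 and 1220 CPM (995, 1491 and 1115 counts). Replicates 2 and 3 of the resistant strain were the highest libraries, whereas resistant replicate 1 fell within the susceptible range, so the groups overlapped. The overlap was within counting error, as resistant replicate 1 had an interval of 1188 to 1312 CPM and susceptible replicate 2 of 1192 to 1321 CPM. The means were 1560 ± 271 and 1184 ± 93.5 CPM (SD, n = 3 each), a 1.31-fold difference that did not pass the test (log2 fold change 0.39, 95% interval 0.07 to 0.72, unadjusted p = 0.0224, edgeR adjusted p = 0.0586). Without resistant replicate 1 the log2 fold change was 0.53 (adjusted p = 0.0124). With libraries scaled to mapped reads the log2 fold change was -0.33 (adjusted p = 0.45). Relative to the median of the table it stood 0.32 to 0.37 higher under the 8 scalings or tests, a distance that scaling hardly affects.

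**Figure D2:**
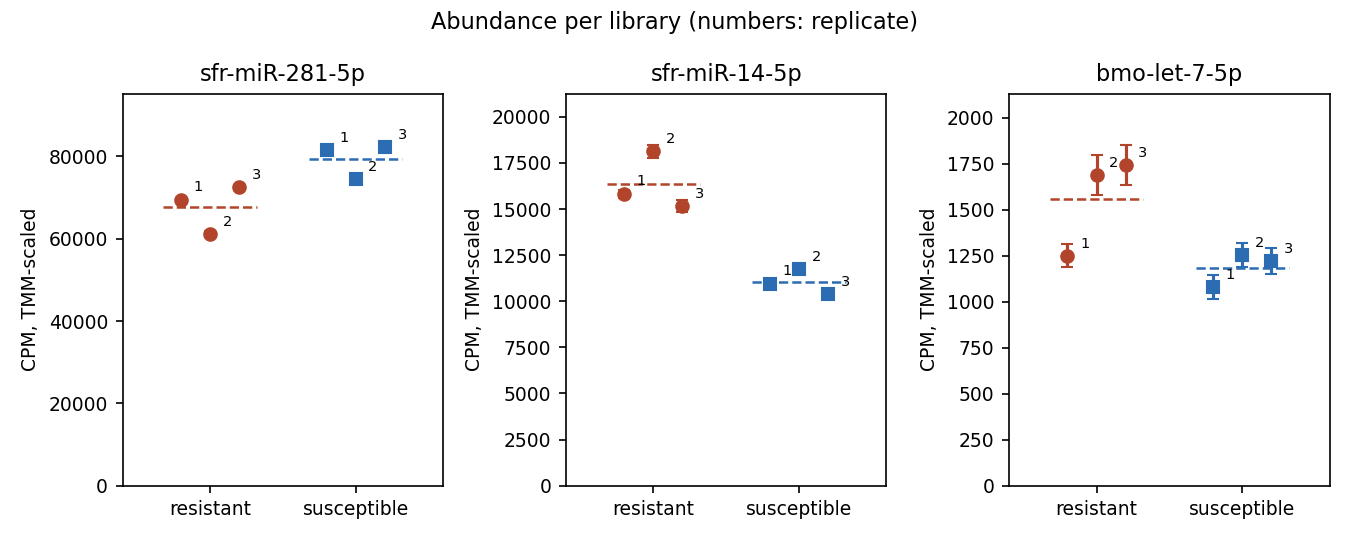
CPM per library (linear axes from 0, scaled by TMM) of the 3 moulting miRNAs; points are libraries numbered by replicate, bars are 95% counting intervals and dashed lines the mean of each strain. The strains are separated for sfr-miR-14-5p (15172 to 18138 against 10400 to 11721 CPM), nearly touch for sfr-miR-281-5p and overlap for bmo-let-7-5p.

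bmo-let-7-5p lay where the abundance curve is flatter, and its rank ran from 28 to 33. It changed places between libraries with 9 sequences, compared with 2 each for sfr-miR-14-5p and sfr-miR-281-5p. The next sequences by mean level were the predicted miRNAs Spodoptera_mature_60 (1455 ± 779 CPM, SD, n = 6) above and Spodoptera_mature_02 (1292 ± 145 CPM, SD, n = 6) below. The differences of bmo-let-7-5p from them were 0.07 ± 0.64 and 0.07 ± 0.38 on the log2 scale (SD, n = 6 libraries), within the spread. bmo-let-7-5p was above Spodoptera_mature_02 in the 3 resistant libraries and below it in the 3 susceptible libraries. Against sfr-miR-10460-5p the split was the reverse, with bmo-let-7-5p below it in the 3 resistant libraries and above it in the 3 susceptible libraries. bmo-let-7-5p was above Spodoptera_mature_60 in 1 resistant and 3 susceptible libraries. Changes of place thus went both ways between the strains.

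Ratios within a library do not depend on the scaling between libraries. The ratio of sfr-miR-281-5p to sfr-miR-14-5p was 4.39, 3.37 and 4.78 in the resistant strain (replicates 1, 2 and 3), while the susceptible strain had 7.43, 6.35 and 7.91. The strains did not overlap, which follows from the levels above, where the 2 miRNAs were separated by strain in opposite directions. The separation is therefore no further evidence. The share of separated ratios over all pairs of sequences was not worked out. On the log2 scale the difference between the strains was -0.80 (2.05 ± 0.26 against 2.85 ± 0.16, SD, n = 3 each), so that sfr-miR-14-5p gained 1.74-fold on sfr-miR-281-5p in the libraries labelled resistant (exact permutation test, two-sided p = 0.1, adjusted over the 3 ratios p = 0.15). A p of 0.1 is the smallest that 3 libraries against 3 allow, so none of these ratios could reach 0.05.

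The ratio of sfr-miR-281-5p to bmo-let-7-5p was 55.6, 36.2 and 41.6 in the resistant libraries and 75.5, 59.3 and 67.5 in the susceptible libraries. Here too the strains did not overlap, with a log2 difference of -0.62 (exact permutation test, two-sided p = 0.1, adjusted p = 0.15). Resistant replicate 1 lay nearest to the susceptible libraries.

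The ratio of sfr-miR-14-5p to bmo-let-7-5p was 12.7, 10.7 and 8.7 in the resistant libraries and 10.2, 9.34 and 8.53 in the susceptible libraries. The strains overlapped, and the log2 difference of 0.18 was within the spread (exact permutation test, two-sided p = 0.4, adjusted p = 0.4). sfr-miR-14-5p and bmo-let-7-5p thus both stood higher against sfr-miR-281-5p in the resistant libraries, and no difference between these 2 was detectable with 3 libraries per strain. It was 0.05 without resistant replicate 1.

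**Figure D3:**
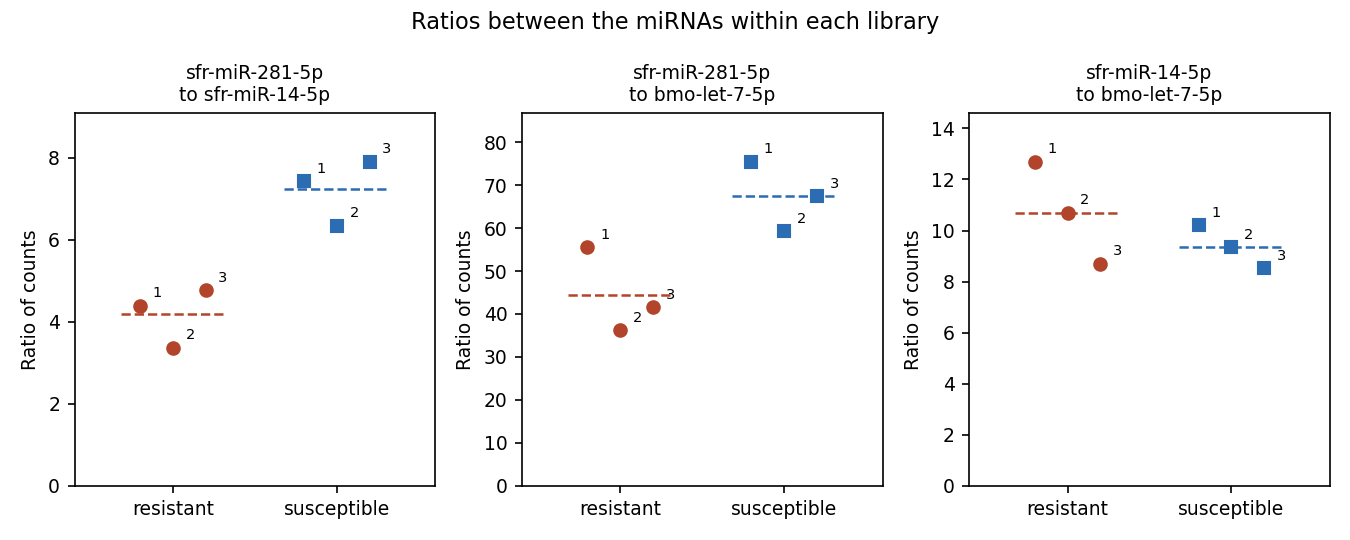
Ratios of counts within each library (linear axes from 0); points are libraries numbered by replicate and dashed lines the mean of each strain. The 2 ratios with sfr-miR-281-5p on top separate the strains (3.37 to 4.78 against 6.35 to 7.91, and 36.2 to 55.6 against 59.3 to 75.5), whereas sfr-miR-14-5p to bmo-let-7-5p overlaps.

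The order of the 3 miRNAs by their spread across libraries depended on the scaling. Over all 6 libraries the SD of log2 CPM with TMM scaling was 0.159 for sfr-miR-281-5p, 0.279 for bmo-let-7-5p and 0.328 for sfr-miR-14-5p. These were the 15th, 48th and 59th lowest of the 96 distinct sequences with at least 10 counts in every library, whose median was 0.280. With libraries scaled to mapped reads the SDs were 0.709, 0.355 and 0.326, so that sfr-miR-281-5p was the most variable of the 3. With TMM scaling, from the lowest to the highest library, sfr-miR-281-5p varied 1.35-fold, bmo-let-7-5p 1.62-fold and sfr-miR-14-5p 1.74-fold. The counting error of a single library was smaller, at most 0.539% of the value for sfr-miR-281-5p, 1.07% for sfr-miR-14-5p and 3.25% for bmo-let-7-5p.

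With TMM scaling, sfr-miR-14-5p varied less within a strain than over all libraries. Its SD of log2 CPM was 0.134 in the resistant and 0.086 in the susceptible libraries (n = 3 each), below the medians of 0.234 and 0.148 over the 96 sequences. With libraries scaled to mapped reads its SDs were 0.458 and 0.172, and the first was above that over all 6 libraries (0.326). sfr-miR-281-5p had 0.128 and 0.079 with TMM scaling. bmo-let-7-5p had 0.266 in the resistant libraries, above the median, and 0.116 in the susceptible libraries, also with TMM scaling. All 3 varied more among the resistant than among the susceptible libraries, as the medians of the table did.

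**Figure D4:**
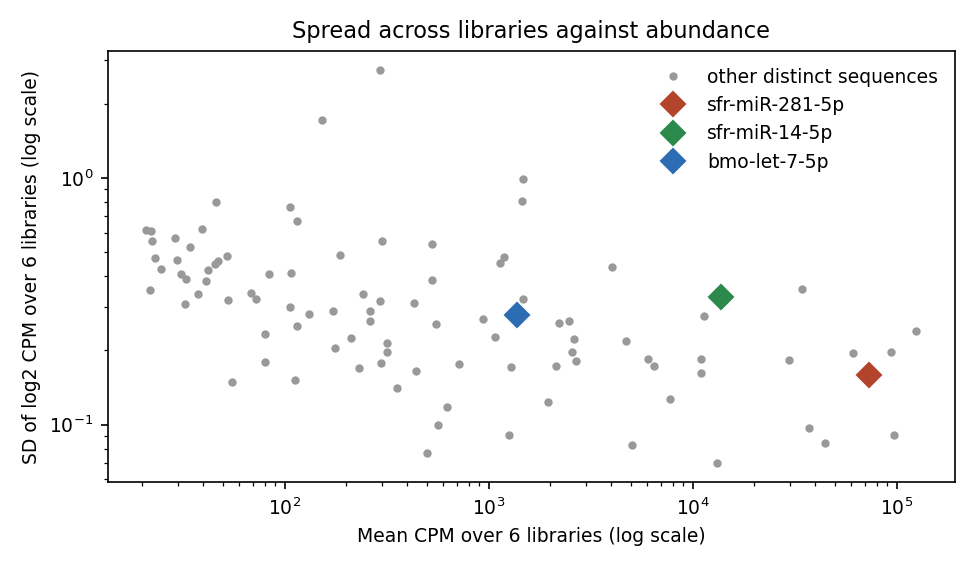
SD of log2 CPM over 6 libraries (TMM scaling) against mean CPM (both axes log scale) for the 96 distinct sequences with at least 10 counts in every library; grey points are other sequences and diamonds the moulting miRNAs. sfr-miR-281-5p (0.159) is well below the median of 0.280, whereas sfr-miR-14-5p (0.328) is above it. With libraries scaled to mapped reads, sfr-miR-281-5p had the highest SD of the 3 (0.709).

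sfr-miR-2766-5p, which shares its seed with sfr-miR-14-5p, was close to it in abundance. It had 11225, 11723 and 13388 CPM in the resistant and 10139, 9610 and 9747 CPM in the susceptible libraries, and the groups did not overlap. Over the table, 27.7% of the sequences tested were separated with the resistant libraries higher. Its log2 fold change was 0.30 (95% interval 0.08 to 0.52, edgeR adjusted p = 0.043), a call kept in 3 of 16 alternatives, and it was -0.39 with libraries scaled to mapped reads. sfr-miR-14-5p contributed 53.1% to 60.7% of the pair's counts in resistant libraries, compared with 51.6% to 54.9% in susceptible ones, so the shares overlapped. The sum of both was 28494 ± 1401 CPM in the resistant and 20857 ± 627 in the susceptible libraries (SD, n = 3 each). With their counts summed, an alternative chosen after the data had been seen, the log2 fold change of this seed was 0.47 (standard error 0.08, edgeR adjusted p = 0.00277).

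Of 9 other miRNAs tied to moulting hormones or chitin turnover in insects, 1 was higher in the libraries labelled resistant, none was lower and 8 did not pass the test, where 35.7% of all sequences tested passed with all libraries. Their median log2 fold change was 0.06 against 0.03 over the table. bmo-miR-13a-5p was the 1 that passed (38.5 ± 4.44 against 23.7 ± 2.50 CPM, SD, n = 3 each; log2 fold change 0.68, edgeR adjusted p = 0.043), on as few as 21 counts per library. Its call was kept in 1 of 16 alternatives, and its log2 fold change was -0.01 with libraries scaled to mapped reads. Its relatives sfr-miR-13b-5p, sfr-miR-2a-5p, sfr-miR-2b-5p and sfr-miR-2c-5p, a family that acts on a juvenile hormone response gene in the cockroach, had log2 fold changes of 0.20, 0.06, -0.09 and 0.06. bmo-miR-34-5p and bmo-miR-8-5p, whose Drosophila counterparts are lowered by ecdysone, had 0.19 and 0.05. bmo-bantam-5p, which in Drosophila restrains ecdysone production, had -0.01, and bmo-miR-263a-5p, tied to chitin turnover in locusts, had -0.34 (adjusted p = 0.175).

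**Figure D5:**
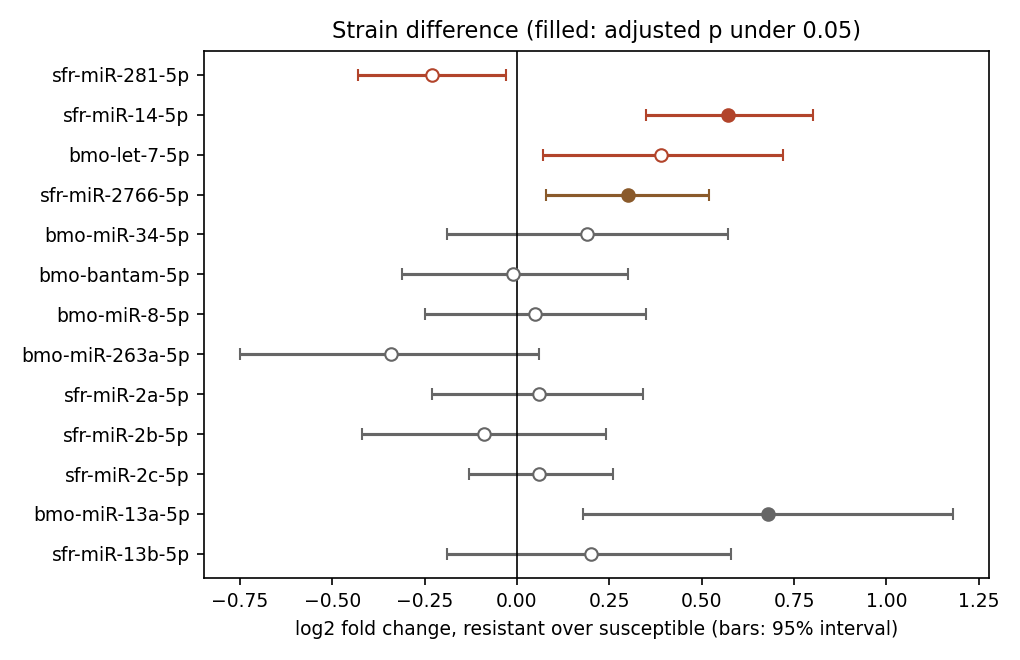
log2 fold change of resistant over susceptible (points) with 95% intervals (bars) for the moulting miRNAs (red), the seed partner of sfr-miR-14-5p (brown) and 9 other moulting miRNAs (grey); filled points had an adjusted p under 0.05. sfr-miR-14-5p (0.57) has an interval above 0, as do bmo-let-7-5p (0.39), sfr-miR-2766-5p (0.30) and bmo-miR-13a-5p (0.68), and that of sfr-miR-281-5p (-0.23) is below 0. With libraries scaled to mapped reads, the first 4 of these were below 0.

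The sequences whose levels followed each miRNA most closely over the 6 libraries differed among the 3. These correlations are descriptions over 6 libraries that fall into 2 strains and share 1 scaling, with 95 candidates. sfr-miR-14-5p was most like bmo-miR-9a-5p (Pearson's r of log2 CPM 0.988), a miRNA of sense organ development in Drosophila, followed by bmo-miR-274-5p (0.947) and Spodoptera_mature_60 (0.944). The ratio of sfr-miR-14-5p to bmo-miR-9a-5p stayed between 1.11 and 1.25 in all libraries. bmo-let-7-5p was most like sfr-miR-279a-5p (0.936), bmo-miR-276-5p (0.918) and bmo-miR-71-3p (0.892). sfr-miR-281-5p was most like Spodoptera_mature_26 (0.964), bmo-miR-2796-5p (0.829) and bmo-miR-184-3p (0.822). The log2 fold changes of the 6 sequences that followed sfr-miR-14-5p and bmo-let-7-5p were above 0. Those of the 3 that followed sfr-miR-281-5p were below 0. These signs follow largely from the selection, since the sequences were picked by correlation over the same 6 libraries. With libraries scaled to mapped reads, bmo-miR-9a-5p (-0.23), bmo-miR-274-5p (-0.29), sfr-miR-279a-5p (-0.03) and bmo-miR-276-5p (-0.42) were below 0. Spodoptera_mature_60 stayed above 0 (0.60), and the value of bmo-miR-71-3p under this scaling is not given here.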

How the data were processed

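Small RNA of 6 libraries was measured. Per the labels and the study's methods, 50-bp reads went through cutadapt, which dropped those under 18 nt, and the authors ran miRDeep2 on miRBase precursors, with ZJU_Sfru_1.0 as the genome. Raw counts, RPM (reads per 1000000, by the authors) and a signal normalized by the authors with DESeq2 stand side by side in the deposited table. The counts were used for all main results, the RPM and the signal for alternatives. The totals behind the deposited RPM, worked out from its rows of high counts, were 834989 to 1958553 reads, far below the mapped reads that the study lists, so RPM is not relative to those. The counts cover mature miRNAs only, so library sizes set to the study's mapped reads were an alternative. CPM totals include copies. Mature and precursor sequences come from the study's supplementary tables.

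Counts were fitted over the whole table with edgeR 4.0.16 in R 4.3.3 (filterByExpr, TMM, glmQLFit, glmQLFTest, no term besides strain). Ratios were compared by exact permutation tests (scipy 1.17.1). Precursors were folded with ViennaRNA 2.7.2. Alternatives used DESeq2 1.42.0, limma 3.58.1 on log2(RPM + 1), other factors, filters and treatments of copies, a replicate block and leaving out each library. The miRNAs and lists were chosen with earlier results of these data known. Named miRNAs were the 3 described, seed partners, 9 other moulting miRNAs, the 3 closest by correlation and the neighbours in abundance. The ratios of sfr-miR-14-5p to bmo-miR-9a-5p and sfr-miR-2c-5p and the seed sum were added after values were seen. bmo-miR-278-5p and sfr-miR-10460-5p were named after their values were seen.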

Additional observations from a re-analysis of the deposited data

How the results depend on the processing

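The fold change of sfr-miR-14-5p stayed above 0 with an adjusted p under 0.05 in 15 of 16 alternatives and turned to -0.15 with library sizes from mapped reads. That of bmo-let-7-5p turned to -0.33 there, and its adjusted p fell under 0.05 with DESeq2 (log2 fold change 0.38), with each sequence once (0.41), without resistant replicate 1 and with the replicate block (0.38). That of sfr-miR-281-5p kept its direction in 16 alternatives, and its adjusted p fell under 0.05 with no low-count filter (-0.33), with the 3 most abundant sequences removed (-0.32) and with the replicate block (-0.23). Leaving out 1 library gave 0.31 to 0.53 for bmo-let-7-5p, 0.49 to 0.65 for sfr-miR-14-5p and -0.28 to -0.16 for sfr-miR-281-5p. The cause of these changes was not tested. The count of 40 sequences called was 26 with at least 10 counts in every library, where 96 were tested, and 19 to 29 with 1 library left out, lowest without susceptible replicate 2. The log2 differences of the ratios kept their sign with 1 library left out. They were -0.91 to -0.65 for sfr-miR-281-5p to sfr-miR-14-5p, -0.79 to -0.48 for sfr-miR-281-5p to bmo-let-7-5p and 0.05 to 0.33 for sfr-miR-14-5p to bmo-let-7-5p. The scaling of a library cancels in a ratio, so RPM and the authors' normalized signal gave the same differences by construction. Replicate numbers were not taken as pairs, and the labels do not name them as such. The deviations of same-numbered libraries correlated at 0.0436, 0.276 and 0.271, and 2 of 6 libraries correlated best with their own number. With so few libraries these values cannot decide whether the numbers mark pairs. The replicate block left the count at 38 and the fold change of sfr-miR-14-5p at 0.57 (adjusted p = 0.00102). Paired differences of the ratios have the same means by construction (-0.80, -0.62 and 0.18; exact sign-flip test, two-sided p = 0.25 each, the smallest that 3 pairs allow). The SD of log2 CPM of sfr-miR-281-5p was 0.709 with library sizes from mapped reads, in place of 0.159, which made it the most variable of the 3 in place of the least. Depth limited none of the 3 miRNAs, which had at least 949 counts in every library; 3 libraries per strain limited the tests.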

Other observations

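In both strains, replicate 2 had the highest level of sfr-miR-14-5p (18138 and 11721 CPM) and the lowest level of sfr-miR-281-5p (61150 and 74458 CPM), and replicate 1 had the lowest level of bmo-let-7-5p (1249 and 1079 CPM). The highest level of bmo-let-7-5p did not share a number, at resistant replicate 3 (1744 CPM) and susceptible replicate 2 (1255 CPM). The ratio of sfr-miR-14-5p to bmo-let-7-5p was highest in replicate 1 (12.7 and 10.2) and lowest in replicate 3 (8.7 and 8.53) of both strains. These matches were picked from the values themselves, and the share of all sequences with such matches was not counted. The labels do not say that same-numbered libraries share a batch. Over all sequences 2 of 6 libraries correlated best with their own number, a count from too few libraries to decide it.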
